A study of Mus musculus with 9 samples.

Results

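The IgLON family of cell adhesion molecules was followed in liver fibroblasts through its members Opcml (opioid binding protein/cell adhesion molecule-like), Ntm (neurotrimin), Lsamp (limbic system associated membrane protein) and Negr1 (neuronal growth regulator 1). The members were taken by gene symbol, 4 of the 24453 genes of the deposited RNA sequencing table, and were picked with their levels in these libraries known, so their values and calls are given as a description and nothing is read from the tests. Iglon5, the remaining gene of the family, is given beside them.

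IgLON proteins carry 3 immunoglobulin-like domains and are held in the outer leaflet of the plasma membrane by a glycosylphosphatidylinositol (GPI) anchor, with no cytoplasmic part. They bind one another, as like or unlike pairs, on the same cell or across neighbouring cells, and are best known from the brain, where they act in neurite outgrowth and synapse formation. OPCML is also known as a tumour suppressor that binds receptor tyrosine kinases at the membrane, and NEGR1 as a gene linked to human body weight.

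The study compared 3 groups of cells from mouse livers, with 3 libraries in each group and cells of 3 to 5 mice pooled in each library. It gives the C57BL/6J background for the wild-type and MC4R-KO mice, and names none for the Col1a2-GFP Tg mice. Hepatic stellate cells (HSCs) came from normal wild-type livers, carried no transgene, and were separated by density gradient. Fibroblasts of the chemical model (CCl4-fib) came from Col1a2-GFP Tg mice that received carbon tetrachloride 2 times per week for 8 weeks. Fibroblasts of the steatohepatitis model (NASH-fib) came from Col1a2-GFP Tg mice crossed with MC4R-KO mice, which lack the melanocortin 4 receptor, and fed Western diet for 20 weeks, males that were 8 weeks old at the start. The age of the other mice is not given in the sources used here. Both fibroblast groups were sorted as CD45- GFP+ cells, that is, cells in which a collagen promoter was active. The sort, the transgene and the fibrotic liver were therefore shared by CCl4-fib and NASH-fib and absent from HSCs. Carbon tetrachloride, diet, Mc4r genotype and the length of treatment (8 against 20 weeks) differed between CCl4-fib and NASH-fib. The parts of all these in any difference cannot be told apart. Reads on genes numbered 3071070 to 3825522 in HSC libraries, 4687349 to 5634273 in CCl4-fib libraries and 3289758 to 5021156 in NASH-fib libraries. Mc4r, the gene deleted in NASH-fib, was unread outside that group (0 reads) and had 4, 13 and 0 reads within it, so its level did not check the genotype.

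The labelled cell types were compared with their markers. The 10 markers of quiescent stellate cells (Lrat, Reln and others) summed to a normalised read count of 53578 to 60805 in HSCs, 6753 to 19721 among CCl4-fib and 18441 to 32342 among NASH-fib libraries. The 10 markers of activated fibroblasts (Col1a1, Acta2 and others) summed to 7087 to 12640, 52304 to 59512 and 34992 to 40154 in the same order. Other cells also left RNA, since the 12 hepatocyte markers summed to 31217 to 54095 in HSCs, 3695 to 6157 in CCl4-fib and 12869 to 39373 in NASH-fib, and the 7 mesothelial markers to 606 to 989, 16812 to 24358 and 25589 to 32061.

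Opcml and Ntm are neighbours on chromosome 9. In the mm10 annotation used for counting, Opcml (NM_177906) lies on the plus strand at chr9:27791269-28925048 and Ntm (NM_172290) on the minus strand at chr9:28995964-29963129, so that their 3′ ends face each other across 70915 bases with 0 annotated genes between them. Lsamp (NM_175548, plus strand) lies at chr16:41533342-42146213 and Negr1 (NM_001039094, plus strand) at chr3:156561794-157316464. The 4 genes span 613 to 1134 kb, of which only 1798 to 5982 bases are exonic and were counted, whereas Iglon5 (NM_001164518, minus strand) covers 17.1 kb at chr7:43472907-43490023. No other annotated gene lies on the exons of the 4 members.

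Because the members are paralogs, their coding sequences (GENCODE vM21 transcripts, GRCm38) were aligned pair by pair. The coding regions hold 1014 bases in Opcml, 1035 in Ntm, 1026 in Lsamp and 1047 in Negr1. Opcml and Ntm were the most alike, with 740 of 1009 aligned bases identical (73.3%), while the other pairs shared 62.6% to 65.8%. The longest run of identical bases was 45 in Opcml and Ntm, at chr9:28404342-28404386 and chr9:29411582-29411626, exon 2 of each, and 11 to 18 in the other pairs.

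**Figure D1:**
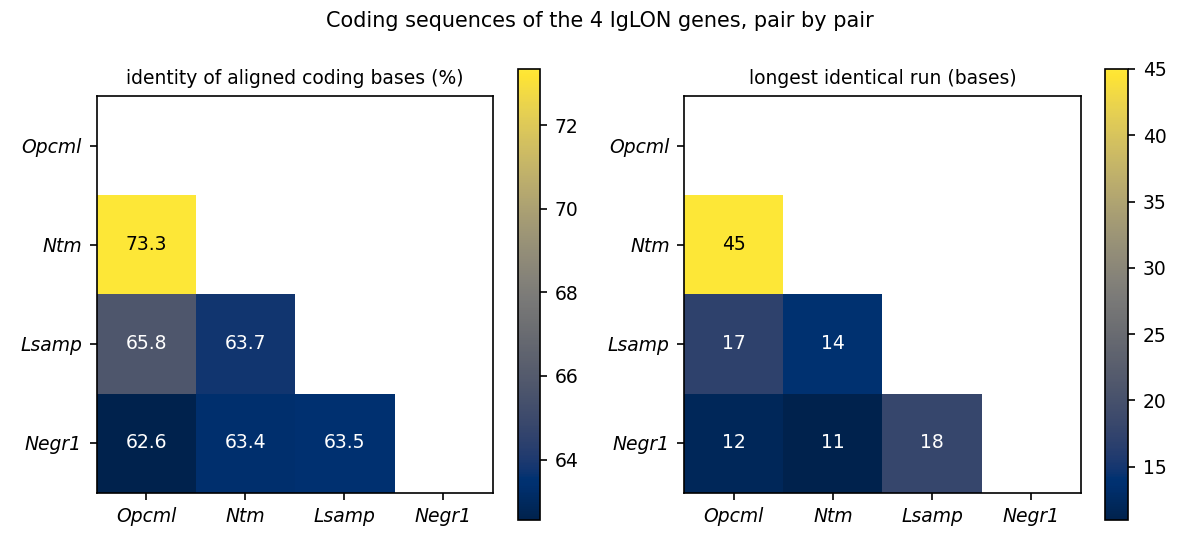
Percentage of aligned coding bases that are identical (left) and the longest run of identical bases (right) for each pair of the 4 IgLON genes. Opcml and Ntm stand apart at 73.3% and 45 bases, and the other pairs lie between 62.6% and 65.8% and between 11 and 18 bases.

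The stretch around that run is shown because it is where reads of Opcml and Ntm are hardest to tell apart. It holds coding bases 61 to 150 of Opcml and the bases aligned to them, 5′ to 3′ with introns left out, reaching over chr9:27791446-28675137 in Opcml, chr9:29179251-29962845 in Ntm, chr16:41533452-41888918 in Lsamp and chr3:156562256-156859440 in Negr1. Capitals mark the 45-base run in the Opcml line, and bases identical to Opcml in the others. Of the 90 Opcml bases, 87 are matched in Ntm (96.7%), 62 in Lsamp and 54 in Negr1.
Opcml: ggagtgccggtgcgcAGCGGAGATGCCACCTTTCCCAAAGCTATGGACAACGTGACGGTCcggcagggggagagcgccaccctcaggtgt
Ntm: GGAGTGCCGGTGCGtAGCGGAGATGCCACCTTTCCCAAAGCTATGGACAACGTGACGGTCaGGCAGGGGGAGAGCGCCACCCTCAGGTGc
Lsamp: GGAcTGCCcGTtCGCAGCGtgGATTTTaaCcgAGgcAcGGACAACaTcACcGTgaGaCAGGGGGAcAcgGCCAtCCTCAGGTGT
Negr1: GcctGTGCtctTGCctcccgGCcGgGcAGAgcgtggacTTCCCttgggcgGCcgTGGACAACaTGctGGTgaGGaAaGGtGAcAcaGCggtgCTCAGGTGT

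Reads shorter than the run cannot be placed between Opcml and Ntm there, and the read length is not given in the sources used here. The 3 HSC libraries held 503 to 755 reads on Ntm and 0 on Opcml. Whether reads of Opcml (143 to 251 in NASH-fib libraries) were placed on Ntm (21 to 80) was not tested.

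Ntm was the IgLON gene of HSCs. Its normalised read count was 726, 732 and 903 in the 3 HSC libraries, 10.3, 6.80 and 11.5 in those of CCl4-fib and 28.6, 71.3 and 34.4 in those of NASH-fib. All HSC libraries lay above all fibroblast libraries, and all NASH-fib libraries above all CCl4-fib libraries. Behind these values stood 503 to 755 reads per library in HSCs but only 8 to 13 in CCl4-fib and 21 to 80 in NASH-fib. The mean of 787 ± 100 (SD, n = 3) in HSCs was 82.6-fold higher than that of 9.52 ± 2.43 in CCl4-fib and 17.6-fold higher than that of 44.7 ± 23.1 in NASH-fib, and the NASH-fib mean was 4.70-fold that of CCl4-fib. NTM is known as an adhesion protein of neurons, and its gene ranked high in HSCs, where its level per kilobase of exon (97.9 RPKM, reads per kilobase scaled to the reads of the library) exceeded that of 96.0% of all genes. In NASH-fib it exceeded 67.6% of genes and in CCl4-fib 49.5%. These shares are over all 24453 genes, of which only 14316 to 16028 had reads in a library. A share near 50% is therefore low among genes with reads.

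Opcml showed the opposite order. It had 0 reads in each HSC library, and a normalised read count of 50.0, 16.2 and 6.68 in the CCl4-fib libraries and of 341, 127 and 238 in the NASH-fib libraries. The 3 groups did not overlap, and NASH-fib replicate 2, the lowest of its group, still lay above CCl4-fib replicate 1, the highest of its own. Reads numbered 7 to 63 per library in CCl4-fib and 143 to 251 in NASH-fib. The NASH-fib mean of 235 ± 107 (SD, n = 3) was 9.70-fold that of 24.3 ± 22.8 in CCl4-fib. Because HSCs had no reads, folds against them are lower bounds set at 3 reads in each library, which is a mean value of 3.82. By this bound Opcml was at least 61.6-fold higher in NASH-fib and at least 6.35-fold higher in CCl4-fib than in HSCs. Without CCl4-fib replicate 1 the latter bound was 2.99 and the ratio of NASH-fib to CCl4-fib 20.6. Per length it reached 8.80 RPKM in NASH-fib, above 74.3% of all genes, and 0.908 RPKM in CCl4-fib, above 47.2%, genes without reads included.

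Lsamp and Negr1 were low everywhere, with most of their reads in NASH-fib and in 1 CCl4-fib library. The normalised read count of Lsamp was 4.68, 1.46 and 3.59 in the HSC libraries, 11.9, 0 and 0 in those of CCl4-fib and 8.16, 24.9 and 60.9 in those of NASH-fib. That of Negr1 was 0, 1.46 and 0 in HSC libraries, 9.52, 0 and 0 in CCl4-fib libraries and 46.2, 8.91 and 50.1 in NASH-fib libraries. For both genes the NASH-fib libraries all exceeded the HSC libraries, whereas CCl4-fib replicate 1 overlapped NASH-fib and the other 2 CCl4-fib libraries held 0 reads of either gene. Lsamp had 6 reads in NASH-fib replicate 1 against 4 in HSC replicate 1, so its separation from HSCs rested on few reads. LSAMP guides the wiring of limbic neurons and NEGR1 neurite growth. Both had few counted reads in these cells, with at most 62 reads of Lsamp and 51 of Negr1 in a library. Lsamp was counted over 2459 bases, while its longest annotated coding transcript holds 8794. The mean of Lsamp was 31.3 ± 27.0 (SD, n = 3) in NASH-fib, 9.66-fold that of 3.24 ± 1.64 in HSCs and 7.90-fold that of 3.97 ± 6.88 in CCl4-fib, ratios that were 5.10 and 4.17 without NASH-fib replicate 3. The mean of Negr1 was 35.1 ± 22.8 in NASH-fib, 0.487 ± 0.843 in HSCs and 3.17 ± 5.50 in CCl4-fib. Since HSCs held 1 read of Negr1 in all, its ratio of 78.6 between NASH-fib and HSCs has an exact 95% counting interval of 13.8 to 3136, which covers counting error only. At these depths 0 reads allow a value of up to 2.38 to 4.37 in a library, so a low level of Opcml, Lsamp or Negr1 in the libraries without reads was not detectable.

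Iglon5, the fifth gene of the family, was read mainly in HSCs, as Ntm was. Its normalised read count was 30.4, 2.91 and 13.2 in HSC libraries, against 0, 2.55 and 0 in CCl4-fib libraries and 0, 2.67 and 0 in NASH-fib libraries. Each HSC library lay above each fibroblast library, but HSC replicate 2 rested on 2 reads, below the floor of 3. CCl4-fib replicate 2 and NASH-fib replicate 2 had 3 reads each, so HSC replicate 2 lay above them only through scaling to depth. Summed reads per depth in CCl4-fib were 0.0525 of those in HSCs (exact 95% counting interval 0.0104 to 0.165), and in NASH-fib 0.0636 (0.0126 to 0.200). Without HSC replicate 1 the ratios were 0.101 and 0.122.

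**Figure D2:**
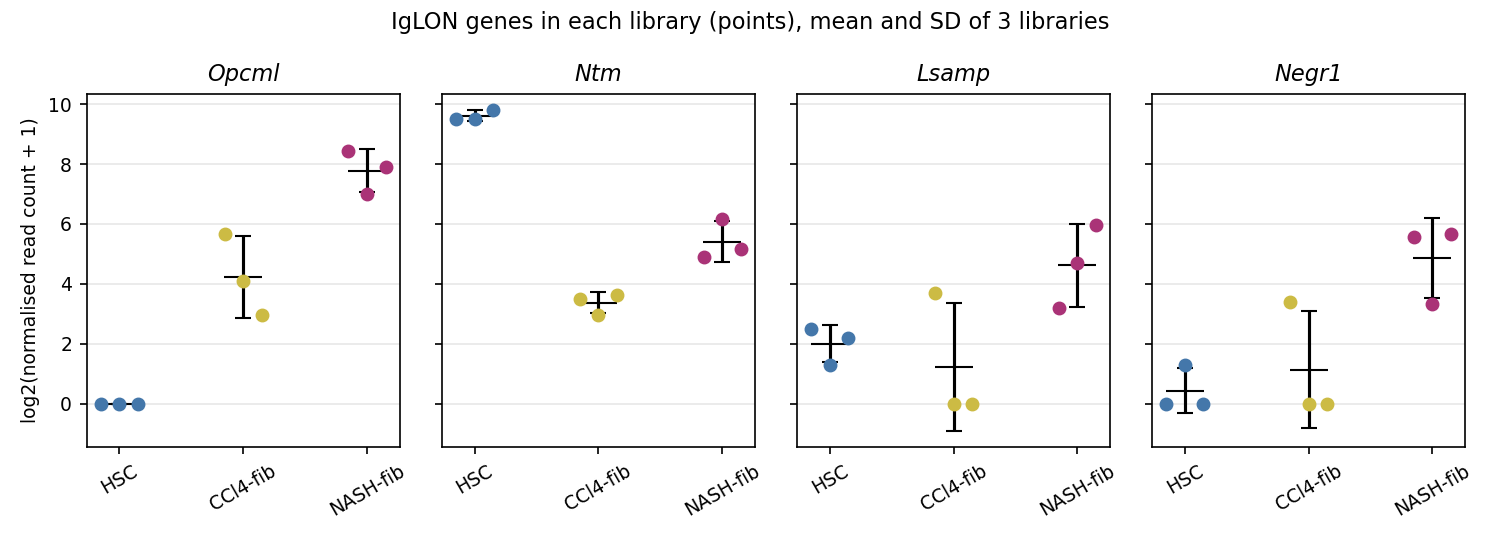
Normalised read count of the 4 IgLON genes in each library, on a log2(value + 1) scale, with the mean and SD of the 3 libraries of each group. Ntm is highest in HSCs and lowest in CCl4-fib, Opcml is at 0 in HSCs and at 127 to 341 in NASH-fib, and Lsamp and Negr1 are at 0 in 2 of 3 CCl4-fib libraries.

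Summed over the 4 members, the family stood at 90.7, 91.3 and 113 RPKM in HSC libraries, 4.66, 1.45 and 1.67 in CCl4-fib libraries and 19.1, 16.3 and 21.0 in NASH-fib libraries. The group means were 98.2 ± 12.5 (SD, n = 3), 2.60 ± 1.79 and 18.8 ± 2.35 RPKM, with no overlap between groups. The make-up of this sum changed with the group. Ntm gave 99.5% to 99.8% of it in HSCs. In NASH-fib Opcml gave 66.7%, 29.2% and 42.4%, Ntm 18.6%, 54.4% and 20.4%, Lsamp 3.88%, 13.9% and 26.4%, and Negr1 10.8%, 2.45% and 10.7%. Thus the summed level varied little among NASH-fib libraries while the leading gene differed, being Opcml in replicates 1 and 3 and Ntm in replicate 2. In CCl4-fib Opcml gave 40.1%, 41.7% and 14.9% of the sum and Ntm 27.5%, 58.3% and 85.1%, on few reads. These shares depend on the exonic length of the counted entry, which is 1798 bases for Ntm and 2459 for Lsamp, whereas the longest annotated coding transcripts hold 3022 and 8794 bases, so reads on the remaining bases were not counted.

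**Figure D3:**
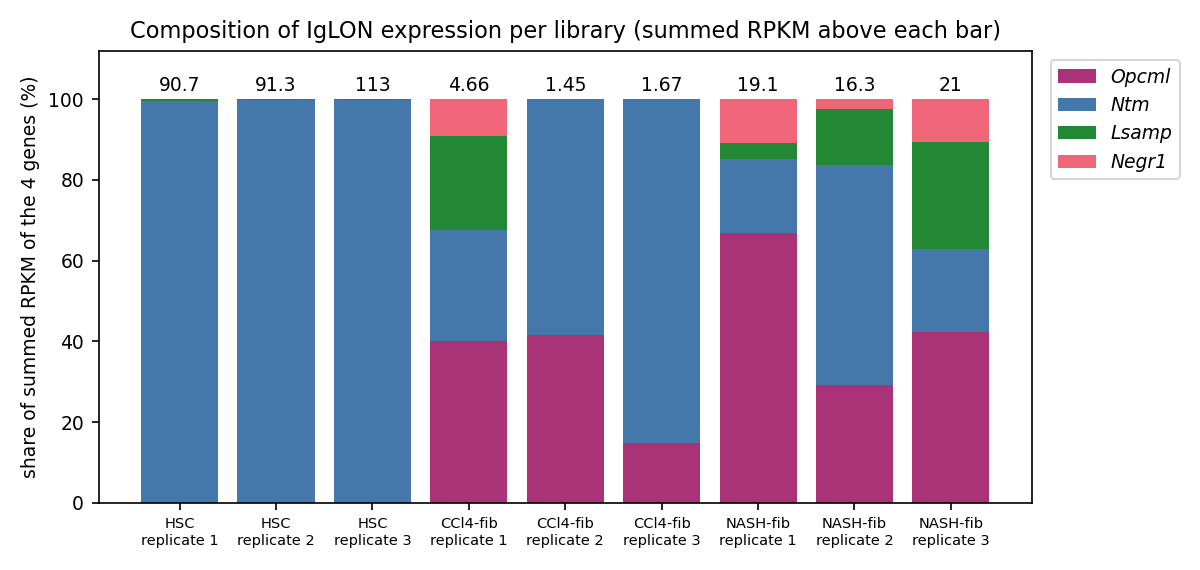
Share of each IgLON gene in the summed RPKM of the 4 genes, for each library, with the sum in RPKM above the bar. HSC bars are almost entirely Ntm on sums of 90.7 to 113, NASH-fib bars mix all 4 genes on sums of 16.3 to 21.0, and CCl4-fib bars rest on sums of 1.45 to 4.66.

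Pair by pair, the members' log2(value + 1) over the 9 libraries gave a Pearson r of 0.858 for Opcml and Negr1, 0.799 for Lsamp and Negr1 and 0.600 for Opcml and Lsamp. It was -0.688 for Opcml and Ntm, -0.314 for Ntm and Negr1 and 0.0376 for Ntm and Lsamp. These are descriptions across libraries of 3 groups, which also differ in cell isolation and depth.

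The question behind the first comparison was how fibroblasts of the NASH model differ from normal HSCs. On the fitted log2 scale, Opcml was higher by 7.77 (SE 0.73), Ntm differed by -4.21 (SE 0.45) and Lsamp was higher by 2.61 (SE 1.10), beside a median of -0.02 over the 13651 genes tested. The Opcml value depends on the pseudocount, since HSCs had no reads, and is not a bound. Opcml also passed the filter on low reads only through NASH-fib, where it is high. Negr1 had too few reads to enter the fit. With limma, where a call needed a Benjamini-Hochberg adjusted p under 0.05 and a change of 1 or more on the log2 scale, 2 of the 3 members tested were called, Opcml upwards and Ntm downwards. Across all genes tested, 8.23% were called higher and 4.3% lower, and since the members were chosen on these libraries nothing is read from their count. Without regard to a fit, 3 members, Negr1 included, were higher in all NASH-fib libraries than in any HSC library and 1 was lower, where 12.7% and 11.6% of the tested genes, 24.4% in all, were separated in this way. For Lsamp the closest libraries of the groups held 6 and 4 reads.

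Between CCl4-fib and HSCs, the comparison for the chemical model, Opcml was higher by 4.24 (SE 0.73) and Ntm differed by -6.25 (SE 0.45) on the fitted log2 scale. Lsamp differed by -0.77 (SE 1.10), and the count models of edgeR and DESeq2 gave it the other sign. Again Opcml and Ntm were called, 2 of 3 members, in a comparison in which 16.2% of all tested genes were called higher and 11.7% lower. Opcml passed the filter on low reads only through NASH-fib, and in a fit of these 2 groups alone it was left out and only Ntm was called. Values of 1 member lay wholly above and of 1 wholly below those of HSCs, as for 27.8% and 20.9% of genes (48.6% in all), and Lsamp and Negr1 overlapped. Both comparisons share the HSC libraries, so their likeness is no separate evidence.

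The third comparison, NASH-fib against CCl4-fib, sets the models against each other, and here every member had its higher mean in NASH-fib. The fitted difference was 3.54 (SE 0.73) for Opcml, 2.03 (SE 0.45) for Ntm and 3.39 (SE 1.10) for Lsamp on the log2 scale, against a median of -0.11 over all genes. Opcml and Ntm were called, where 4.97% of all tested genes were called higher and 5.66% lower, and the same 2 members were separated without overlap, as were 17.1% of genes upwards and 22% downwards (39.1% in all). Here too Opcml passed the filter on low reads only through NASH-fib, where it is high, so nothing is read from its calls. The split of calls moved with the scaling, from 678 genes higher and 773 lower as deposited to 756 and 729 after upper-quartile scaling and 777 and 618 after TMM scaling, which took the median to 0.07. The count models on recovered reads gave 802 and 563 (edgeR) and 1518 and 1161 (DESeq2). Opcml, Ntm and Lsamp had the same direction under each of these. The calls depended on single libraries, as 0 members were called without CCl4-fib replicate 2 or without NASH-fib replicate 3, only Ntm without CCl4-fib replicate 3 or NASH-fib replicate 1, and Opcml, Lsamp and Negr1 without CCl4-fib replicate 1. Without that library CCl4-fib held 0 reads of Lsamp and Negr1, and nothing is read from their calls. In the fits that called 0 members the fitted difference was still 3.47 in both cases for Opcml and 1.83 and 2.16 for Ntm, while the genes called numbered 212 and 269 in place of 1451.

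**Figure D4:**
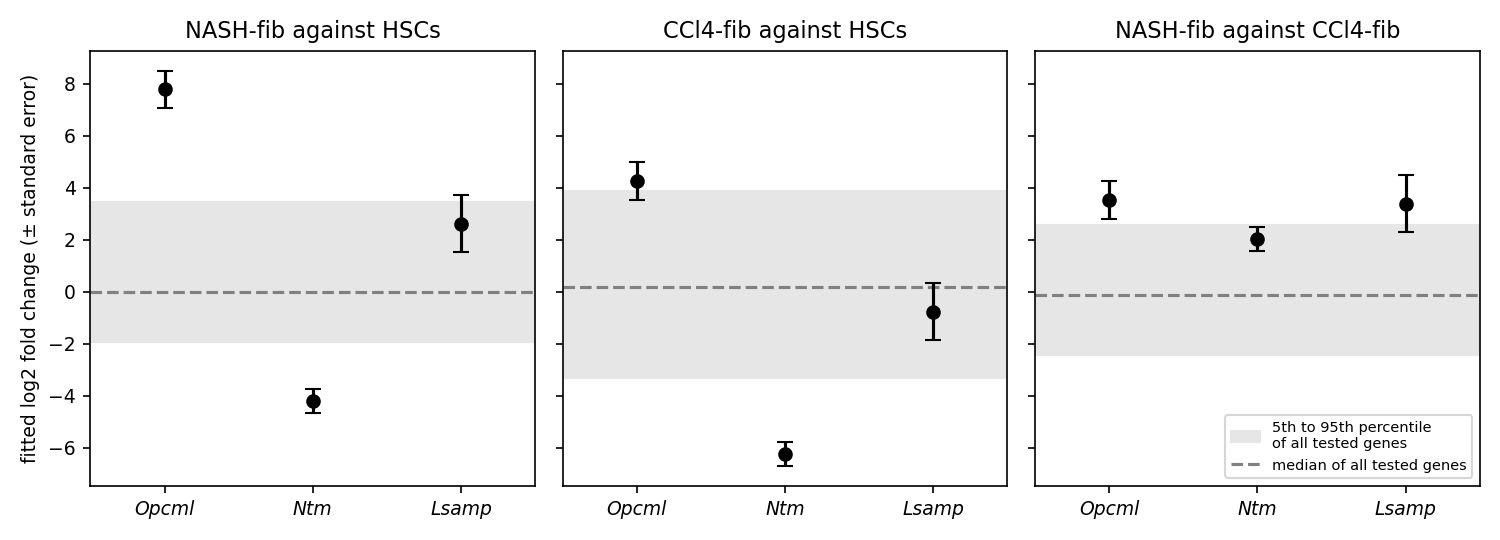
Fitted log2 fold change (± standard error) of the 3 tested IgLON genes in each comparison, with the median (dashed line) and the 5th to 95th percentile (grey) of all 13651 genes tested. Opcml lies above the grey range in all 3 panels, Ntm lies below it in both comparisons with HSCs, and Lsamp is above it only in NASH-fib against CCl4-fib. The Opcml values against HSCs are set by the pseudocount because HSCs had no reads.

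The sample labels carry a prefix shared by some libraries. Within the prefix 11-3, which holds a library of each group, Opcml was 0 in HSC replicate 2, 50.0 in CCl4-fib replicate 1 and 341 in NASH-fib replicate 1, and Ntm was 732, 10.3 and 28.6. Within 11-7, Opcml was 6.68 in CCl4-fib replicate 3 and 127 and 238 in NASH-fib, and Ntm was 11.5 against 71.3 and 34.4. For these genes the order of the groups was the same within both prefixes as over all libraries. Lsamp, at 1.46, 11.9 and 8.16 within 11-3, had its fibroblast groups in the other order there. With the prefix as a term, Opcml and Ntm were called in both comparisons with HSCs, and Opcml alone between NASH-fib and CCl4-fib.

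Other cells could leave IgLON RNA in bulk samples, where fewer cells of a type and less RNA per cell cannot be told apart. The 8 neuronal markers summed to 26.2 to 123 in HSCs, 128 to 268 in CCl4-fib and 194 to 237 in NASH-fib, and Snap25, Elavl4, Nefl and Nefm had at most 3 reads in every library. Mesothelial markers, given above, were higher in both fibroblast groups than in HSCs, as were the 7 cholangiocyte markers, which summed to 72.5 to 232, 3488 to 4778 and 6103 to 11859, and the 8 smooth muscle markers, at 109 to 410, 3456 to 16045 and 6975 to 24718. The 9 portal fibroblast markers summed to 208 to 251, 11780 to 15345 and 6549 to 12506. Mesothelial, cholangiocyte and smooth muscle markers had their highest median in NASH-fib, as Opcml did, although both fibroblast groups had been sorted as CD45- GFP+ cells, and their part in its level was not tested. The sums are not separate, since mesothelial and cholangiocyte markers share Krt19. Cholangiocyte and activated fibroblast markers share Spp1, and smooth muscle and quiescent stellate markers share Des. Sinusoidal endothelial markers (8 genes, 7188 to 15348, 230 to 271 and 1118 to 3754) and macrophage markers (8 genes, 3477 to 11218, 172 to 242 and 486 to 2097) followed the group order of Ntm, as quiescent stellate markers did, and their part was not tested either.

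The genes most like each member were taken as the 5 with the highest Pearson r over the 9 libraries. For Opcml they were Capsl (r = 0.990), Krtdap (0.989), Pcsk1 (0.982), Slc16a1 (0.981) and Ptprq (0.979). Of these, Pcsk1 encodes a prohormone convertase and Slc16a1 the lactate transporter MCT1, whose mean normalised read count was 188 in HSCs, 831 in CCl4-fib and 2261 in NASH-fib. Capsl, Krtdap and Pcsk1 had a mean of 0 in HSCs, as Opcml did. For Ntm they were Spry1 (0.986), Spag17 (0.985), Pip4k2a (0.984), Abcc9 (0.984) and Pde8b (0.983). Spry1 is an inhibitor of receptor tyrosine kinase signalling, with means of 830, 68.9 and 183, and Abcc9 a subunit of ATP-sensitive potassium channels, with means of 11831, 289 and 1218. Lsamp was followed by Gnao1 (0.937), Cav2 (0.926), Pdp2 (0.914), Nmnat2 (0.912) and Sparcl1 (0.911), of which Gnao1 encodes a G protein subunit abundant in neurons. Negr1 was followed by Slc6a14 (0.979), Cib3 (0.961), Sftpd (0.953), Ecm2 (0.952) and Prom1 (0.940), of which Slc6a14 encodes an amino acid transporter and Prom1 the surface protein CD133. With 3 groups of libraries, any gene with the same order of group means scores high on this measure.

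Receptors and other proteins known to bind IgLON members, and the protease Adam10 that sheds NEGR1, made a list of 9 genes, all tested. Against HSCs, 2 were higher and 1 lower by this test in NASH-fib (list median 0.61, all genes -0.02), and 4 higher and 1 lower in CCl4-fib (1.26, all genes 0.18). Between NASH-fib and CCl4-fib, 1 was called in each direction (-0.20, all genes -0.11). Of all tested genes, 8.23% and 4.3% were called higher and lower in the first comparison, 16.2% and 11.7% in the second and 4.97% and 5.66% in the third. Fgfr2, a receptor of fibroblast growth factors that NEGR1 binds, fell in both models, from a normalised read count of 5002 ± 811 (SD, n = 3) in HSCs to 362 ± 88.0 in CCl4-fib (limma log2 fold change -3.80, adjusted p = 6.78e-05) and 326 ± 127 in NASH-fib (adjusted p = 7.94e-05). It was thus high where Ntm was high. Erbb4, the receptor of neuregulins, had 0 reads in all HSC and CCl4-fib libraries and 21.2 ± 8.56 in NASH-fib, at least 5.55-fold and 8.17-fold higher. Erbb4 passed the filter on low reads only through NASH-fib, where it is high. Nothing is therefore read from its calls, or from the list counts and medians that include it.

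Axl, a receptor tyrosine kinase bound by OPCML, rose from 545 ± 183 (SD, n = 3) in HSCs to 1375 ± 219 in CCl4-fib and 1459 ± 661 in NASH-fib (limma adjusted p = 0.0264 and 0.0456). Fgfr1, bound by OPCML as well, rose in CCl4-fib from 92.3 ± 26.1 to 430 ± 169 (limma adjusted p = 0.00297) and stood at 195 ± 30.3 in NASH-fib (adjusted p = 0.122 against HSCs). Epha2, an ephrin receptor, rose in CCl4-fib from 33.1 ± 12.6 to 113 ± 18.9 (limma adjusted p = 0.0443). Npc2, the lysosomal cholesterol carrier that NEGR1 binds, rose from 498 ± 258 in HSCs to 4109 ± 485 in CCl4-fib (limma adjusted p = 0.000861) and was lower in NASH-fib, at 773 ± 369, than in CCl4-fib (adjusted p = 0.0136). Erbb2 and Fgfr3 passed the test in no comparison. Adam10 had 1390 ± 641, 1414 ± 331 and 1313 ± 689 in the 3 groups, with limma adjusted p of 0.795 to 0.948.

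Genes for making, attaching, remodelling or cleaving GPI anchors, on which IgLON proteins depend for their place in the membrane, formed a list of 10 genes, all tested. Against HSCs, 0 were called in NASH-fib (list median 0.03, all genes -0.02), where 8.23% of all tested genes were called higher and 4.3% lower. In CCl4-fib 2 were called higher (1.14, all genes 0.18), a share near the 16.2% of all tested genes called higher there. Pigk, the catalytic subunit of the transamidase that attaches the anchor, rose from 167 ± 101 (SD, n = 3) in HSCs to 593 ± 68.0 in CCl4-fib (limma adjusted p = 0.0133), and Pigs, another subunit, from 44.5 ± 22.4 to 145 ± 63.6 (adjusted p = 0.0408). In NASH-fib Pigk stood at 162 ± 74.7 and the subunit Gpaa1 at 12.7 ± 13.1, both lower than in CCl4-fib (limma adjusted p = 0.0314 and 0.0437). These 2 were the calls of the list between the models, where 4.97% of all tested genes were called higher and 5.66% lower. The list median there was -1.29 beside -0.11 for all genes. Nothing is read from so few calls.

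Other immunoglobulin adhesion genes known from neurons, a list of 27, had 14 members that passed the filter on low reads. Of these, 6 were higher and 1 lower by the test in NASH-fib against HSCs, where 8.23% and 4.3% of all tested genes were, and 7 and 3 in CCl4-fib against HSCs, where 16.2% and 11.7% were. Between NASH-fib and CCl4-fib 3 were higher and 4 lower, beside 4.97% and 5.66%. Cntn1, Cntn6, Chl1, Nfasc, Cadm4 and Thy1 had at most 8 reads in any HSC library. They passed the filter only through fibroblasts, where they are high, and Cadm2 passed it only through NASH-fib. Nothing is therefore read from these counts, no median is given, and no adjusted p is printed for these genes. Cntn6, a GPI-anchored contactin, was like Opcml in having 0 reads in HSCs. It had a normalised read count of 41.1 ± 9.07 (SD, n = 3) in NASH-fib, at least 10.8-fold higher, and 69.7 times the reads per depth of CCl4-fib (exact 95% counting interval 18.8 to 582). Cadm2, a synaptic adhesion gene, was also higher in NASH-fib, at 77.2 ± 28.0, than in HSCs (9.63 ± 10.8) and CCl4-fib (4.14 ± 3.86), without overlap. Cadm3, like Ntm, was lower in both models than in HSCs, falling from 412 ± 42.4 in HSCs to 40.8 ± 8.18 in CCl4-fib and 48.1 ± 14.4 in NASH-fib (limma adjusted p = 0.000183 and 0.000413), but unlike Ntm its fibroblast groups overlapped.

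Other genes of that list were highest in CCl4-fib, where Ntm and the summed IgLON level were lowest. Ncam1, the neural cell adhesion molecule, had 40.7 ± 26.7 (SD, n = 3) in HSCs, 4838 ± 1835 in CCl4-fib and 753 ± 178 in NASH-fib, and passed the test in all 3 comparisons (limma adjusted p of 1.67e-05 to 0.014). Chl1, a close homolog of L1, had 1.28 ± 1.20, 562 ± 33.5 and 7.72 ± 6.62, and was lower in NASH-fib than in CCl4-fib, without overlap. The axonal adhesion gene Nfasc, at 0.400 ± 0.693, 99.1 ± 27.8 and 10.5 ± 8.34, was also lower in NASH-fib than in CCl4-fib, as was Cntn1 (0, 23.5 ± 12.3 and 0.453 ± 0.785). Thy1, a GPI-anchored protein that also marks portal fibroblasts, rose from 5.51 ± 4.89 in HSCs to 97.5 ± 9.76 in CCl4-fib and 241 ± 166 in NASH-fib. Genes of this list thus had their highest mean in each of the 3 groups.

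**Figure D5:**
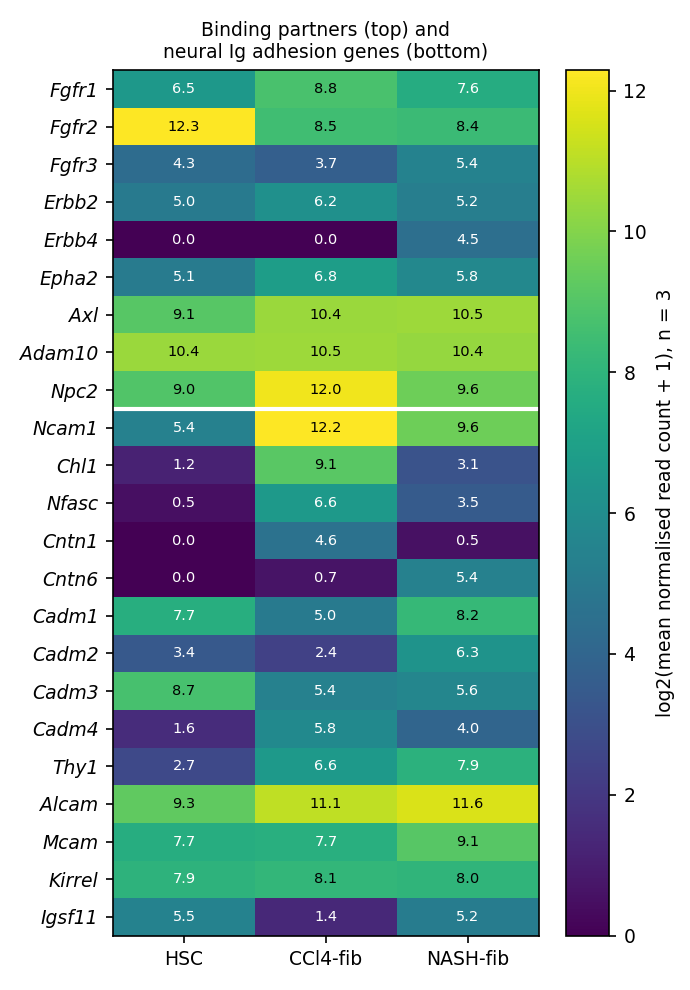
Mean normalised read count (log2 of the mean + 1, n = 3) in each group for the tested genes of the binding partner list (top) and of the neural immunoglobulin adhesion list (bottom). Fgfr2 and Cadm3 are brightest in HSCs, Ncam1, Chl1 and Nfasc in CCl4-fib, and Erbb4, Cntn6 and Cadm2 in NASH-fib.

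The promoters of Opcml and Negr1, both of which had their highest mean in NASH-fib, are printed because a RefSeq start site (GRCm38.p6) lies within 30 bases of the start of the counted entry. The listed start sites of Ntm lie 549677 and 550444 bases from the counted start, and those of Lsamp 516 and 1548978 bases, so these are not shown. Each sequence runs from upstream of the start site to just past it on the plus strand, 5′ to 3′, with CG dinucleotides in capitals, at chr9:27791049-27791348 for Opcml and chr3:156561544-156561843 for Negr1.
Opcml: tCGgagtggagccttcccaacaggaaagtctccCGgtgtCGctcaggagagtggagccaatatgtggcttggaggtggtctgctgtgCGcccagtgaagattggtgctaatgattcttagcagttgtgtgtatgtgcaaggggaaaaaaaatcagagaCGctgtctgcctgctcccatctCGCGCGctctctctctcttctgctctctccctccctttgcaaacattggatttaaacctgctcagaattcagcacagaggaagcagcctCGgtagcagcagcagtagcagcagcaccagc
Negr1: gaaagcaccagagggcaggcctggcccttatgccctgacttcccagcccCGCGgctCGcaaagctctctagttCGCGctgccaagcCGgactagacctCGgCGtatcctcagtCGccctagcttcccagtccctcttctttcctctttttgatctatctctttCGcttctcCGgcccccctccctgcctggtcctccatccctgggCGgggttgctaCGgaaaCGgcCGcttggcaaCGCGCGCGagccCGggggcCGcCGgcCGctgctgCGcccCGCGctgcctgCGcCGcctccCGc

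The Opcml promoter holds 9 CG dinucleotides and 53.7% G and C, close to the medians of 7 and 52.7% over 32851 promoters, 45.8% of which have as many CG dinucleotides or more. That of Negr1 holds 29 CG dinucleotides and 68% G and C, and 12.9% of promoters have as many or more. Letters of 5 motifs were searched on both strands, with the share of all promoters that hold them. The AP-1 motif TGANTCA was in 7.81% of all promoters and the TEAD motif GGAATG in 14.7%. An E-box of the form CAGCTG was in 16.3%, the GC box GGGCGG in 35.7% and the TATA box TATAAA in 13.6%. The Opcml window held 0 of the 5 and the Negr1 window 1 match, to GGGCGG. A match or its absence describes these letters in this window only.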

How the data were processed

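RNA of pooled HSCs and sorted fibroblasts was amplified with the SMARTer kit, sequenced as single-end reads and aligned by the authors to mm10 with STAR. RefSeq exons were counted with HOMER on either strand, keeping up to 3 reads at a position and joining the transcripts of a gene. The deposited values are a signal per gene, these counts scaled by the authors for DESeq2 over 10 libraries, of which 1 is not analysed here. Each library sums to about 4471991, and 100% of values were whole multiples of the value of 1 read (tolerance 0.05), which gave the reads and the RPKM used here. HSC, CCl4-fib and NASH-fib libraries were compared with limma 3.58.1 (R 4.3.3) in 1 fit of log2(value + 1) over 9 libraries, on the 13651 genes that filterByExpr of edgeR kept (minimum count 10), with Benjamini-Hochberg adjustment over all of them. The script was tested on simulated data. Calls needed an adjusted p under 0.05 and a log2 fold change of 1 or more in size. The plan was edgeR for raw counts and limma otherwise, and the values are not raw counts. The floor was 3 reads per library, and intervals cover counting error only. No source says that the 3 pools of a group came from separate experiments, so the spread may be technical in part.

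The members, gene lists and tests were chosen with earlier results of these data known. Named genes were the members and Iglon5, the 5 genes most correlated with each member, Fgfr1 and Adam10, and called genes of the lists, at most 5 for each list and comparison. The result of 1 marker list is not reported here. Values of other list genes (Fgfr3, Erbb2) and of Cadm3 and Cntn1 in comparisons outside that limit were added after their values were seen. Promoters came from RefSeq and coding sequences from GENCODE vM21, aligned with Biopython 1.88. Alternatives were TMM and upper-quartile scaling, edgeR 4.0.16, DESeq2 1.42.0, no filter, an average RPKM over 100, pseudocounts of 0.5 and 5, 2 groups only, a replicate block, the label prefix as a term and each library left out.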

Additional observations from a re-analysis of the deposited data

How the results depend on the processing

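Fitted differences of Opcml, Ntm and Lsamp kept their sign in 166 of 168 values under the alternatives. The exceptions were Lsamp in CCl4-fib against HSCs by edgeR (0.20) and DESeq2 (0.23), where it was not called. Over the alternatives, the log2 difference of Opcml ran from 5.48 to 10.99 in NASH-fib against HSCs, from 2.26 to 7.50 in CCl4-fib against HSCs, in both of which HSCs had no reads, and from 2.89 to 4.25 between the models. That of Ntm ran from -4.68 to -3.95, from -6.50 to -5.78 and from 1.65 to 2.37. In a fit of only the groups compared, 1 member (Ntm) was called in CCl4-fib against HSCs, where Opcml no longer passed the filter, and 1 (Opcml) between the models, as with the label prefix as a term (1, Opcml). Without a filter Negr1 was also called in NASH-fib against HSCs and against CCl4-fib. Leaving out each library gave 2 to 3 members in NASH-fib against HSCs, 2 in CCl4-fib against HSCs and 0 to 3 between the models. Genes called numbered 1711, 3801 and 1451 in these comparisons. Leaving out each library gave 1258 to 1993, 2446 to 4872 and 212 to 1804, the last lowest when CCl4-fib replicate 2 was left out, and 269 when NASH-fib replicate 3 was. With the label prefix as a term 668, 2476 and 593 were called, and with an average RPKM over 100, which keeps 1080 genes and 0 members, 131, 315 and 159. DESeq2 called 2679 between the models. The replicate block called 929 between the models and changed no call of a member. Deviations of libraries with the same number correlated at -0.473 to 0.514, and those with different numbers at -0.588 to 0.645. Pairing by number was thus not apparent, although 3 libraries per group cannot decide it, and the numbers do not follow the label prefix. NASH-fib replicate 1 and HSC replicate 2, which share the prefix 11-3, gave the 0.645. The other pairs that share a prefix gave -0.171 to 0.04. The causes were not tested. Lsamp and Negr1 had at most 62 reads in a library.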
